A study of Sus scrofa with 20 samples.

Results

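The hormones, granins and lineage factor of the enteroendocrine cells of the gut were examined in caecal mucosa of the pig. The list comprised 10 genes: the granins CHGA and CHGB, the peptide hormones GCG, PYY, SST, CCK, NTS and INSL5, the serotonin-producing enzyme TPH1 and the transcription factor NEUROD1. Each gene was looked up by its symbol in the annotation of the array, and the brightest probeset over all pigs stood for a gene with several. Of the 10 genes, 7 had a named probeset with values, out of 10567 distinct gene symbols among the 25092 probesets with values. PYY, TPH1 and INSL5 had none under their symbol and were not analysed here, so no level is given for them.

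Transcript abundance was measured on the Affymetrix porcine snowball array in mucosa scraped from the tip of the caecum of 20 Large White and Landrace cross pigs, 1 array per pig. Of these, 10 pigs had a high and 10 a low feed efficiency (FE), and both groups were housed and fed alike. High FE stands for a low residual feed intake, which is the part of feed intake not accounted for by growth and body composition, and the most divergent pigs within litter and sex were chosen. The pigs came from 5 litters, named by their sow, and each litter contributed a high FE male, a high FE female, a low FE male and a low FE female. A litter shared its pen, so litter and pen cannot be told apart. The labels give no age and no slaughter batch. The values are log2 intensities after robust multichip averaging, in which 1 unit is a doubling.

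Enteroendocrine cells are scattered single cells of the intestinal epithelium that sense luminal content and release hormones at their base. In the hindgut of mammals the main types are the L cells, which make glucagon-like peptides from GCG together with PYY, the somatostatin-producing D cells and the serotonin-producing enterochromaffin cells, whereas CCK and NTS belong mainly to the small intestine. Hormones are stored in dense granules, whose matrix proteins are the granins. Since these cells are a small minority of the mucosa, their transcripts are diluted in scraped tissue, and fewer cells of a type cannot be told apart from less RNA per cell.

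The arrays were similar in overall shape, with upper quartiles of 6.25 to 6.30 log2 units and correlations of 0.942 to 0.974 between arrays over 25092 probesets. The presence of epithelium was examined with 25 epithelial markers, of which 15 were measured and 14 lay above the median of all probeset means (4.77), led by KRT8 at 12.33. Of 18 measured genes of other organs, 4 lay above that median too. Among markers of other tissue layers, 11 of 18 neuronal, 5 of 7 glial and 6 of 8 smooth muscle genes were measured, with median levels of 4.63, 4.77 and 4.72. Enteric neurons can make several of these products too, somatostatin, cholecystokinin, neurotensin and granins among them, so levels in scraped mucosa need not come from enteroendocrine cells alone.

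The 7 genes fell on both sides of the median probeset. CHGA, on chromosome 7 from 114345542 to 114357799 of Sscrofa11.1, encodes chromogranin A, the general marker of enteroendocrine cells. It averaged 6.80 ± 0.20 (SD, n = 20) on the log2 scale and ranged from 6.34 to 7.15. CHGB, on chromosome 17 from 14747282 to 14761995, encodes chromogranin B and averaged 5.96 ± 0.29 with a range of 5.39 to 6.51. SST, the somatostatin gene on chromosome 13 from 125337560 to 125338742, averaged 6.13 ± 0.40 with a range of 5.32 to 6.67. GCG, the proglucagon gene on chromosome 15 from 68800557 to 68810268, averaged 5.196 ± 0.548 with a range of 4.44 to 6.39. These 4 probesets lay above the median of all probeset means.

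The other 3 genes were dim. NEUROD1, which drives hormone-producing cells late in their differentiation, lies on chromosome 15 from 87175629 to 87179953 and averaged 3.17 ± 0.29 (SD, n = 20) on the log2 scale. NTS, the neurotensin gene on chromosome 5 from 96261299 to 96272947, averaged 2.96 ± 0.26. CCK, the cholecystokinin gene on chromosome 13 from 25940674 to 25945879, averaged 2.57 ± 0.98 and ranged from 1.08 to 4.52, a 10.9-fold span. Its SD was larger than that of 97.4% of probesets, whereas CHGA had a larger SD than 14.7%. Brightness depends on the probes and is no measure of the amount of one transcript against another. Genes with no known role in the gut, such as those of testis, eye or pancreas, give an idea of the level without transcript: 18 of 31 such genes were measured, with means between 1.52 and 8.43 and a median of 4.04. CCK, NTS and NEUROD1 lay within the lower part of that range and CHGA, CHGB, SST and GCG in the upper part, so brightness alone did not show which of the 7 genes were expressed.

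**Figure D1:**
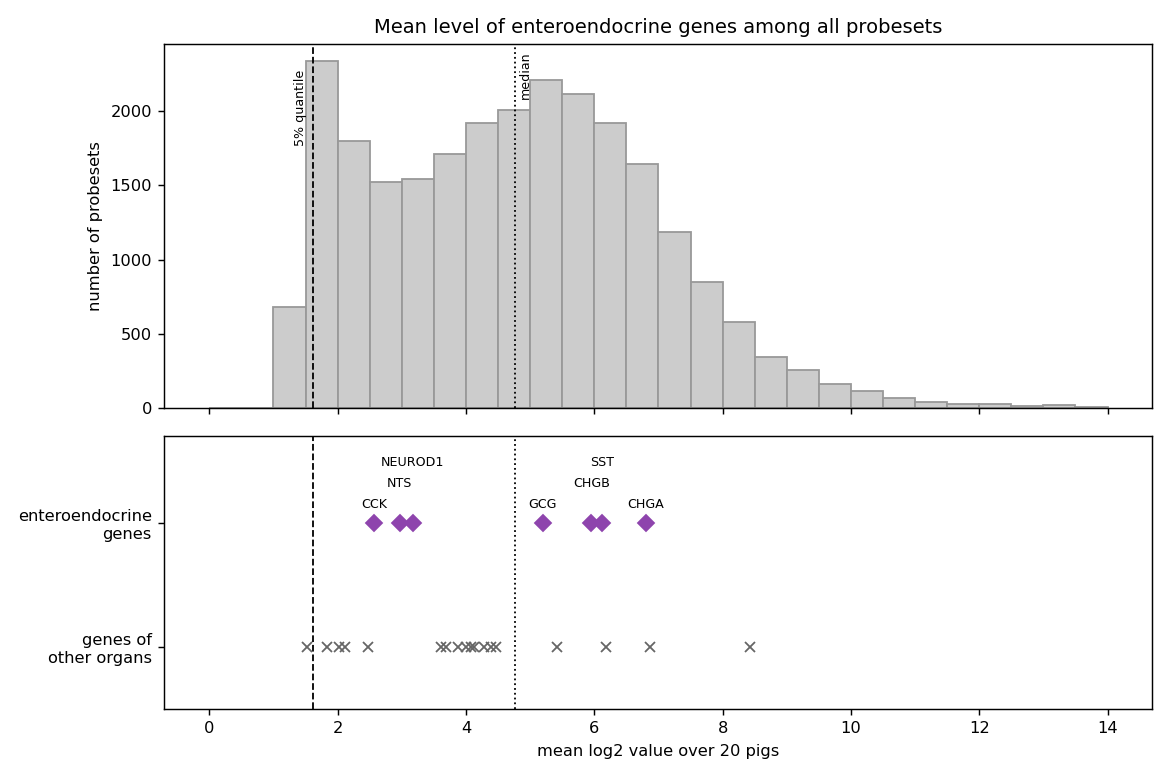
Mean level of 7 enteroendocrine genes (diamonds) and 18 genes of other organs (crosses) on the log2 axis, below the distribution of the means of 25092 probesets; dashed and dotted lines mark the 5% quantile (1.62) and the median (4.77). CHGA, SST, CHGB and GCG lie right of the median, and NEUROD1, NTS and CCK lie left of it.

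A second probeset was available for CHGA, CHGB and NEUROD1. The 2 CHGA probesets correlated with a Pearson r of 0.56 (Spearman rho 0.46) over 20 pigs and those of CHGB with 0.56 (rho 0.60). The 2 NEUROD1 probesets correlated with -0.44 (rho -0.48), and the dimmer of them, at 1.75, was close to the lower filter bound of 1.62. The order of pigs was thus shared in part between the probesets of each granin, and was not shared between those of NEUROD1.

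The first comparison asked whether the caecal transcripts of hormones and granins differ between pigs of high and low FE of the same litter. SST was the gene with the smallest p. Its log2 levels had a lowest, median and highest value of 5.54, 6.36 and 6.67 in high FE pigs and of 5.32, 6.10 and 6.59 in low FE pigs. The 2 groups overlapped over most of their range. The mean was 6.25 ± 0.385 in high FE and 6.001 ± 0.395 in low FE pigs (SD, n = 10 each), a log2 difference of 0.25 ± 0.12 SE (limma p = 0.0591, adjusted p = 0.980). When pigs of the same sow and sex were set against each other, SST was higher in the high FE pig in 9 of 10 pairs. The exception was the female pair of sow 1435, with 5.54 in the high FE and 6.23 in the low FE pig. Of all probesets tested, 1.18% were higher in at least 9 of 10 pairs.

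CHGB lay at 5.55, 6.07 and 6.51 (lowest, median and highest) in high FE pigs and at 5.39, 5.91 and 6.25 in low FE pigs, with a log2 difference of 0.17 ± 0.12 SE and a higher value in the high FE pig in 7 of 10 pairs. For GCG the lowest, median and highest values were 4.53, 5.18 and 5.97 in high FE and 4.44, 5.15 and 6.39 in low FE pigs. The GCG difference was 0.07 ± 0.15 SE, with a 95% interval from -0.24 to 0.38, and 6 of 10 pairs were higher. CHGA lay at 6.44, 6.83 and 7.03 in high FE and at 6.34, 6.79 and 7.15 in low FE pigs. Its difference was 0.04 ± 0.07 SE with a 95% interval from -0.12 to 0.19, the narrowest of the 6 genes tested. The groups overlapped for all of these genes.

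Among the dim genes, NTS lay at 2.56, 2.83 and 3.17 in high FE and at 2.53, 3.10 and 3.41 in low FE pigs. The log2 difference was -0.15 ± 0.12 SE, and NTS was higher in the high FE pig in 3 of 10 pairs, all of them female. NEUROD1 differed by -0.01 ± 0.13 SE. CCK was removed from this test because its SD was above the 95% quantile in both groups. Without that filter it differed by 0.17 ± 0.41 SE (adjusted p = 0.990), with values from 1.53 to 4.01 in high FE and from 1.08 to 4.52 in low FE pigs.

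None of the 6 genes tested had an adjusted p under 0.05 in limma, and none had an unadjusted p under 0.05. Of all 23140 probesets tested, 0% had an adjusted p under 0.05 (0 probesets) and 4.48% an unadjusted p under 0.05. The adjusted p of the 6 genes was between 0.980 and 0.999.

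**Figure D2:**
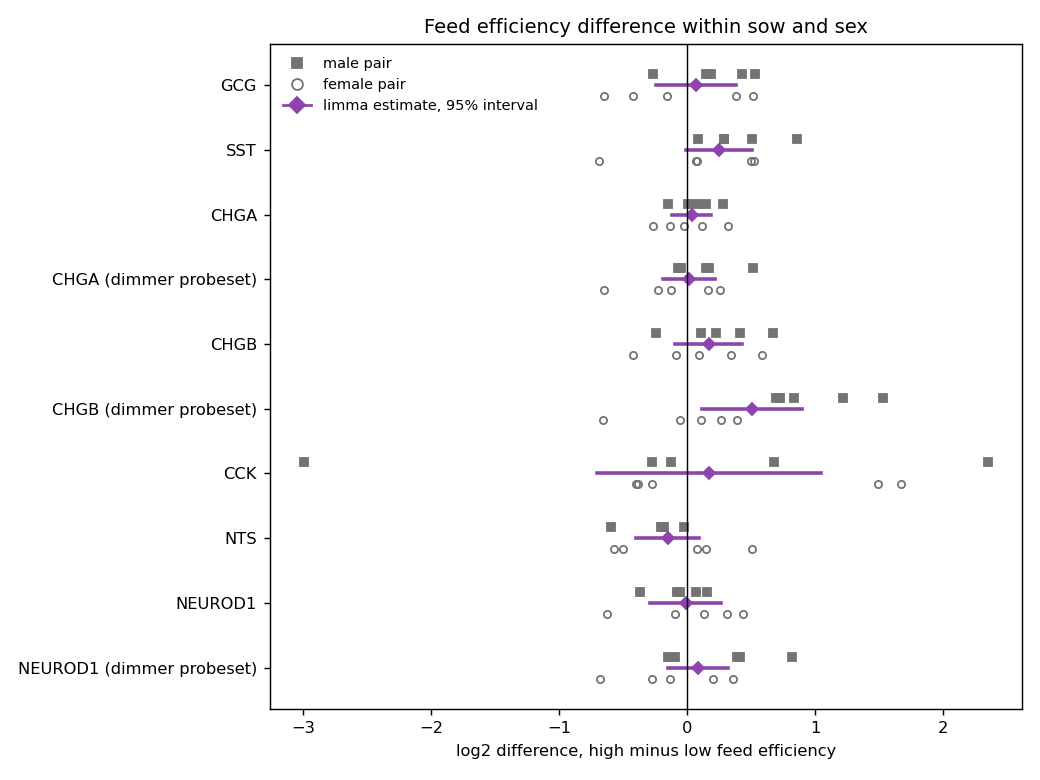
Log2 difference between the high and the low FE pig of each pair of 1 sow and sex, for 7 genes and the second probesets of 3 of them; squares are the 5 male and circles the 5 female pairs, and diamonds with bars are the limma estimate and its 95% interval (for CCK without the filter on SD). The intervals of the 7 probesets used include 0, and in the dimmer CHGB probeset all 5 male pairs lie right of 0.

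The dimmer probeset of CHGB gave other values than the brighter one. It averaged 6.04 ± 0.51 in high FE and 5.53 ± 0.62 in low FE pigs (SD, n = 10 each), a log2 difference of 0.50 ± 0.19 SE (p = 0.0147, adjusted p = 0.980). In males it was at 6.56, 5.396, 6.59, 6.10 and 6.21 in the high FE pigs of sows 1406, 1410, 1411, 1417 and 1435, against 5.72, 4.67, 5.06, 5.41 and 4.99 in the low FE males of the same sows. Every high FE male was above his littermate, by 0.70 to 1.53 log2 units. In females the differences ranged from -0.66 to 0.39, and 3 of 5 pairs were higher in the high FE pig. Over both sexes 8 of 10 pairs were higher, as in 5.92% of all probesets for at least 8 pairs. The FE difference was 0.99 ± 0.29 SE larger in males than in females (p = 0.0031, rank 33 of 23140 probesets), but did not pass the correction (adjusted p = 0.999). The brighter CHGB probeset had a corresponding difference of 0.13 ± 0.24 SE, with 4 of 5 male and 3 of 5 female pairs higher. The probeset was singled out after its values were seen. The list score of neuronal markers, the mean of their log2 values less the mean of each gene over all pigs, was 0.06 (from -0.21 to 0.32) in high FE and -0.06 (from -0.43 to 0.22) in low FE pigs over 11 of 18 genes. Of the 10 neuronal markers tested for FE, 4 had an estimate above 0, with a median log2 difference of -0.02. The list score correlated with the brighter CHGB probeset at r = 0.56 (rho 0.52) and within litters at 0.48 (n = 20). It was not compared with the dimmer probeset. The part of neurons in the CHGB values was not tested.

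For the interaction of FE and sex, 0 of 6 genes passed in limma and 0 had an unadjusted p under 0.05, beside 0% of all probesets after adjustment and 4.11% before it. SST had a difference of 0.40 in males, with all 5 male pairs higher, and of 0.09 in females, with 4 of 5 pairs higher. The difference between the sexes was 0.31 ± 0.25 SE (adjusted p = 0.999).

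Between the sexes, 5 of the 7 genes were on average lower in males, of which NTS and NEUROD1 changed sign under other settings, and none of the 7 had an adjusted p under 0.05. The background was 0% of 23837 probesets after adjustment and 4.29% before it. GCG averaged 5.05 ± 0.43 in males and 5.34 ± 0.64 in females (SD, n = 10 each), a log2 difference of -0.28 ± 0.14 SE (limma p = 0.0512, adjusted p = 0.9999), and was lower in the male in 8 of 10 pairs of 1 sow and FE group. CHGB averaged 5.85 ± 0.32 in males and 6.06 ± 0.21 in females and was likewise lower in 8 of 10 pairs (difference -0.21 ± 0.12 SE, p = 0.0862). Of all probesets, 4.2% were lower in the male in at least 8 of 10 pairs. The dimmer CHGB probeset was lower in the male in 6 of 10 pairs (difference -0.23 ± 0.19 SE, limma p = 0.24). CCK was at 1.08, 2.01 and 4.52 (lowest, median and highest) in males and at 1.63, 3.17 and 4.01 in females, a difference of -0.71 ± 0.39 SE (p = 0.0875). Male and female values overlapped for all 3 genes. CHGA, SST, NTS and NEUROD1 had differences between -0.04 and 0.06, and none of the 7 reached an unadjusted p under 0.05.

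Between litters GCG, SST and CHGA had an unadjusted p under 0.05, and none of the 7 genes passed the correction. GCG had the largest moderated F of the 7 genes (F = 10.996, p = 0.000171), which was rank 58 of 23837 probesets, and an adjusted p of 0.0702. In the order high FE male, high FE female, low FE male and low FE female, the log2 values of GCG were 5.43, 5.97, 5.28 and 6.39 in the litter of sow 1417 and 5.82, 5.74, 5.30 and 5.90 in the litter of sow 1406. They were 5.05, 5.32, 4.62 and 4.80 in the litter of sow 1435, 4.85, 4.53, 5.12 and 5.18 in that of sow 1410, and 4.62, 4.97, 4.44 and 4.59 in that of sow 1411. All 8 pigs of sows 1417 and 1406 were thus at 5.28 or above, and of the other 12 pigs 1 was at 5.32 and the rest at 5.18 or below. Litter means were 5.77 ± 0.51 for sow 1417, 5.69 ± 0.27 for sow 1406, 4.95 ± 0.30 for sow 1435, 4.92 ± 0.30 for sow 1410 and 4.65 ± 0.22 for sow 1411 (SD, n = 4 each). The highest and the lowest mean were 1.116 log2 units apart, or 2.17-fold, while the means of neighbours in this order, other than those of sows 1406 and 1435, differed by no more than 1 SD of the more variable litter. Of the variance of GCG 70.4% lay between litters, more than in 99.3% of probesets, where the median was 26.9%. GCG passed under 3 other settings, with an adjusted p of 0.0304 (without probesets under the median mean), 0.0319 (with array weights) and 0.0422 (without the high FE female of sow 1410), and without the litter of sow 1406 it was 0.233.

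**Figure D3:**
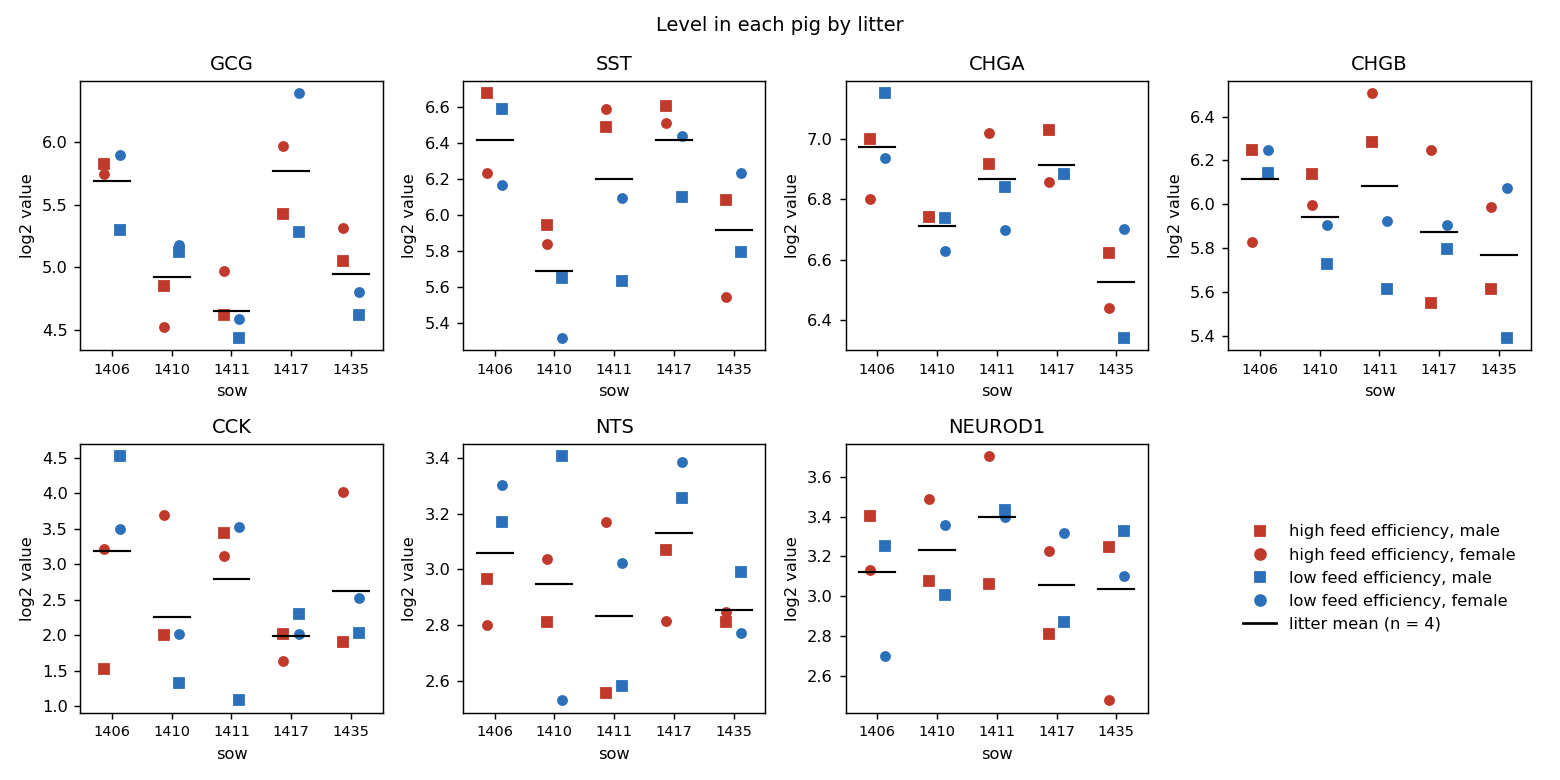
Log2 value of each pig for 7 enteroendocrine genes by sow, with its own axis range in each panel; red marks are high FE and blue marks low FE pigs, squares are males and circles females, and black lines are litter means of 4 pigs. GCG in the litters of sows 1406 and 1417 lies at 5.28 or above, and CHGA is lowest in the litter of sow 1435.

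CHGA and SST also varied by litter before the correction. SST means were 6.42 ± 0.25 for sow 1406, 6.41 ± 0.22 for sow 1417, 6.20 ± 0.43 for sow 1411, 5.91 ± 0.31 for sow 1435 and 5.69 ± 0.27 for sow 1410 (SD, n = 4 each). The moderated F of SST was 5.095 (p = 0.00758, adjusted p = 0.190). CHGA means were 6.97 ± 0.15 for sow 1406, 6.91 ± 0.08 for sow 1417, 6.87 ± 0.14 for sow 1411, 6.71 ± 0.06 for sow 1410 and 6.53 ± 0.17 for sow 1435, and its F was 4.9996 (p = 0.0082, adjusted p = 0.194). With the brighter CHGA probeset, sows 1406 and 1417 were therefore the 2 litters with the highest means for GCG, SST and CHGA alike. SST and CHGA passed under no setting tried. Between litters lay 69.4% of the variance of CHGA and 53.7% of that of SST, more than in 99.2% and 92.9% of probesets. For the dimmer CHGA probeset the share was 34.8%, with an F of 1.6997 (adjusted p = 0.491). Its litters came in another order, with means of 6.85 for sow 1417, 6.83 for sow 1410, 6.81 for sow 1406, 6.73 for sow 1411 and 6.51 for sow 1435. For CHGB, CCK, NTS and NEUROD1 between 19.1% and 21.7% of the variance lay between litters, less than in the median probeset. The dimmer probesets of CHGB and NEUROD1 had larger shares, 42.1% (F = 4.31, p = 0.0147, adjusted p = 0.229) and 48.8% (F = 3.29, p = 0.0378, adjusted p = 0.285).

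By the limma F test 0 of 7 genes had an adjusted p under 0.05, beside 0.126% of all probesets, and 3 of 7 had an unadjusted p under 0.05, beside 16.1%. Markers of B cells moved with litter as well: 6 of 8 were measured, 5 of them had an unadjusted p under 0.05, and MS4A1, the B cell antigen CD20, passed (F = 14.2, adjusted p = 0.0397). Their list score averaged -0.70 for sow 1406 (from -0.98 to -0.51) and 0.69 for sow 1411 (from 0.33 to 1.097). Between them lay -0.39 for sow 1410, 0.07 for sow 1417 and 0.33 for sow 1435. The score correlated with GCG at r = -0.42 (rho -0.51) over all pigs and 0.07 within litters. The part of lymphoid tissue in the GCG differences was not tested. With the epithelial score as a covariate the F of GCG was 10.8 (adjusted p = 0.116).

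The next comparison asked whether the genes vary together from pig to pig. Among 21 pairs of genes, Pearson r over 20 pigs ranged from -0.26 to 0.74 with a median of 0.15, and 17 pairs were positive. A single pair passed after Benjamini-Hochberg adjustment over the 21 pairs, CHGA with SST. Its r was 0.74 (permutation p = 0.00016, adjusted p = 0.00336) and its Spearman rho 0.80 (permutation p = 5e-05, adjusted p = 0.00105). Without the 2 pigs farthest from the median of CHGA r was 0.73. It was 0.93 within the 10 high FE pigs and 0.60 within the 10 low FE pigs. The 2 lowest litters of both genes were those of sows 1410 and 1435. For CHGA this held with the brighter probeset only, since with the dimmer one sow 1410 (6.83) was above sow 1406 (6.81).

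Since litters were penned together, r was also taken on values centred on the litter. For CHGA and SST it was 0.66 (within-litter permutation p = 0.00762, adjusted p = 0.160) and positive in 5 of 5 litters, so that the pair did not pass the correction within litters. Among 10345 genes, CHGA ranked 1 by r to SST over all pigs and 73 on centred values, while SST ranked 19 and 44 for CHGA. Epithelial markers correlated with both genes, at r = 0.41 (rho 0.45) for CHGA and 0.39 (rho 0.47) for SST, and within litters at 0.53 and 0.57. The neuronal score had an r of 0.47 (rho 0.45) with CHGA and 0.36 (rho 0.41) with SST, and within litters of 0.47 and 0.26. For the smooth muscle score r was 0.37 (rho 0.23) with CHGA and 0.34 (rho 0.24) with SST, and within litters 0.34 and 0.53. On residuals from the epithelial score r between CHGA and SST was 0.69 (adjusted p = 0.0189). With the dimmer CHGA probeset r was 0.36 (adjusted p = 0.505), and with the mean of both probesets 0.61 (adjusted p = 0.0348). Without the litter of sow 1406 the pair no longer passed (r = 0.69, adjusted p = 0.0590).

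**Figure D4:**
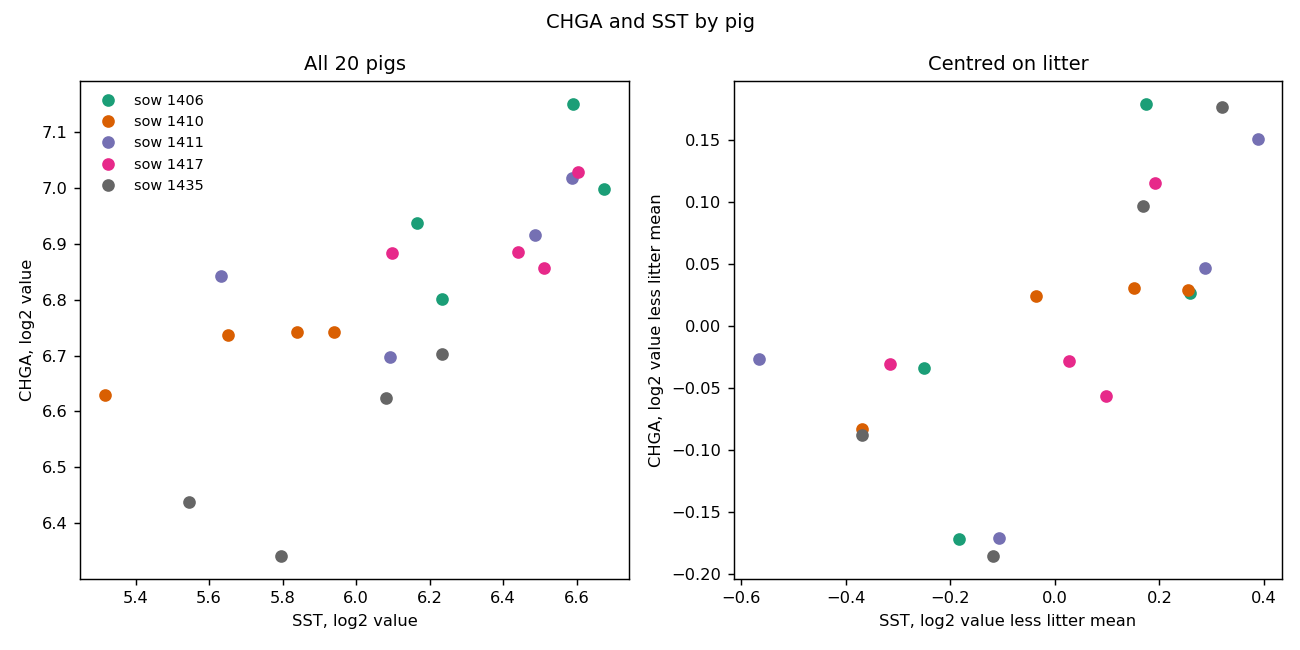
CHGA against SST in 20 pigs, both as log2 values, coloured by sow; the left panel shows the values (r = 0.74) and the right panel the same values less their litter mean (r = 0.66). Pigs with high SST had high CHGA in both panels, and the litters of sows 1410 and 1435 lie at the lower left.

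CHGA with CHGB (r = 0.48, rho 0.45, permutation p = 0.0303) and CHGB with SST (r = 0.45, rho 0.50, permutation p = 0.0452) had the next smallest p-values, both with an adjusted p of 0.287. The r of GCG was 0.35 with CHGA, 0.21 with CHGB and 0.41 with SST, and within litters the values were -0.15, 0.39 and -0.02. With litter means removed, GCG was thus close to 0 or below it with CHGA and SST. NEUROD1 had an r between -0.26 and 0.14 with the other 6 genes, and CCK, with r = 0.40, was closest to CHGB. With the score of neuronal markers, r over 20 pigs was 0.56 for CCK (rho 0.51), 0.56 for CHGB (rho 0.52) and 0.47 for CHGA (rho 0.45), and within litters it was 0.45, 0.48 and 0.47 in the same order.

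**Figure D5:**
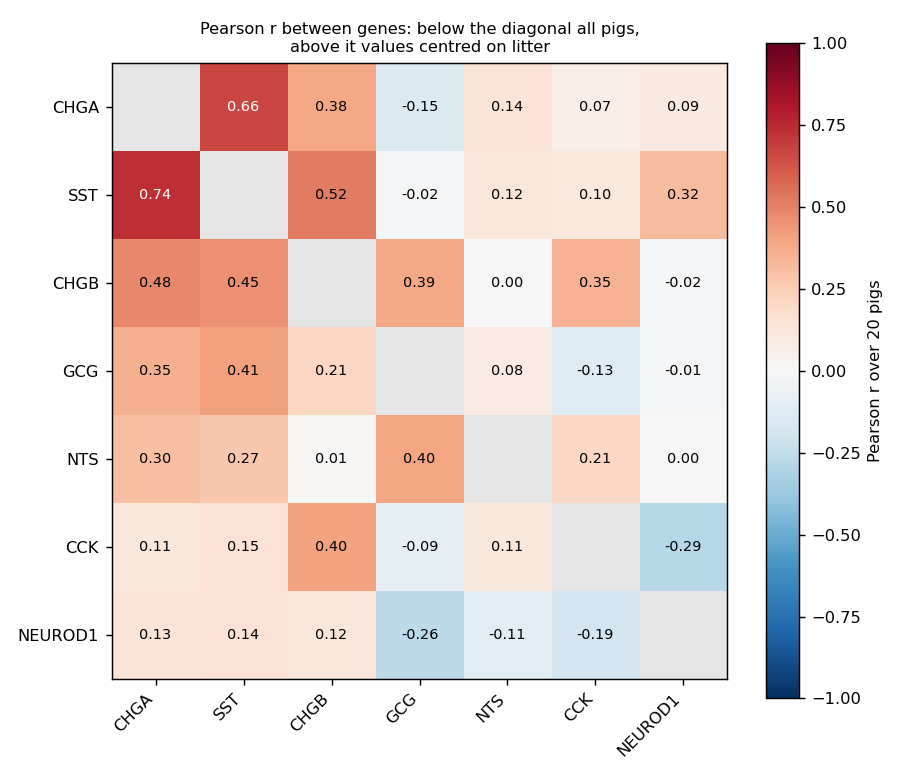
Pearson r over 20 pigs between 7 enteroendocrine genes, on the deposited log2 values below the diagonal and on values centred on their litter above it; red is positive and blue negative. CHGA with SST is the highest of the 21 pairs on both sides, at 0.74 and 0.66.

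Of the 10345 genes compared, those most like CHGA, CHGB, GCG, SST and NEUROD1 were found by Pearson r over 20 pigs on values centred on the litter. Such leading values are the extremes of a long ranking and carry no test. SST was followed most closely by BPHL (r = 0.82) and by ATOH1 (r = 0.81), the transcription factor that starts the secretory lineage of the gut, which goblet, Paneth and enteroendocrine cells share. MRPS26, SURF6 and COQ9 followed at 0.77 to 0.78. ATOH1 averaged 6.12 on the log2 scale, and its r with SST over all pigs was 0.56. Among the 12 measured transcription factors listed for enteroendocrine cells, r with SST within litters ranged from -0.58 for SOX4 to 0.81 for ATOH1. With GCG it ranged from -0.67 for INSM1 to 0.67 for HHEX and was -0.07 for ATOH1. CHGA was followed by the mitochondrial ATP synthase gene ATP5G1 (0.82), DEFB123, TFAP2D, AARSD1 and IQCA1, and CHGB by PIAS3 (0.74), TIAL1, MYH4, SH3BGR and LOC100520329. For GCG the order was ENKUR (0.77), SOCS4, SLC2A6, HPGD, which breaks down prostaglandins, and WDR44. For NEUROD1 it was HOXD1 (0.81), SLC2A11, SSPO, LOC100523388 and FRMPD3. No gene was shared between these 5 lists of 5, but lists this short out of 10345 genes seldom share one.

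Other genes of enteroendocrine function were followed as 6 lists, of which no gene passed for FE, sex, litter or the interaction of FE and sex in limma. Of all named genes, 0 of 10038 passed for FE and for the interaction, 0 of 10346 for sex and 8 of 10346 for litter. For FE, 6 of 10 other hormones tested, 9 of 12 granins and processing enzymes, 7 of 11 transcription factors and 7 of 15 hormone receptors had an estimate above 0, beside 5289 of all 10038 named genes. Among nutrient and microbial sensors 9 of 10 tested were above 0, with a median log2 difference of 0.09 beside 0.01 over all named genes. GPR119, a lipid sensor of L cells, had the smallest p of all 6 lists (0.30 ± 0.10 SE, p = 0.00666, adjusted p = 0.980), at a dim level of 2.63. It was followed in that list by the sodium-glucose transporter SLC5A1 (0.16). None of the 5 genes of serotonin handling was above 0, with a median of -0.05, including GCH1 (-0.18), which makes a cofactor of serotonin synthesis, and MAOA (-0.15), which breaks serotonin down. GPR119 was the only gene of these 6 lists with an unadjusted p under 0.05 for FE. Of all 10038 named genes, 265 with an estimate above 0 and 169 with one below 0 had such a p.

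In the other lists the genes with the smallest p for FE were CPE (-0.38) and SCG5 (-0.15), which take part in cutting prohormones to size, ST18 (0.16) and LMX1A (0.22) among the transcription factors, TRH (-0.08) and PROK1 (0.07) among the hormones, and the receptors GLP2R (-0.09) and RXFP3 (0.13). By litter the largest F was that of SOX4, in the mouse a transcription factor of early enteroendocrine progenitors (F = 12.1, adjusted p = 0.0602). In each of the other 5 lists the gene with the largest F was, in descending order, SLC5A1 and SCG5 (both F = 7.63, adjusted p = 0.115), GAST, the gastrin gene (F = 5.90, adjusted p = 0.161), the serotonin receptor subunit HTR3B (F = 3.80, adjusted p = 0.252) and SLC18A2, a monoamine transporter of granules (F = 1.95, adjusted p = 0.443). The median F of the 6 lists lay between 0.85 and 1.81, beside 1.43 over all named genes. GAST correlated with CHGA at r = 0.66 over all pigs and 0.34 within litters. Its r with CHGB, SST and GCG was 0.35, 0.23 and 0.09 over all pigs, and -0.05, 0.02 and 0.06 within litters. These values are a few of many and were not tested.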

How the data were processed

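Caecal RNA was hybridised to the Affymetrix snowball array, whose probes the authors grouped into probesets on Sscrofa11.1; the processing notes of the submitters list GCOS 1.1.1. The deposited values are log2 intensities from robust multichip averaging, a step that equalises arrays and can compress differences of dim probesets. Of 47845 rows, all 25092 probesets with values in 20 columns were used. Symbols came from the platform annotation, which is older than the layout; 331 were updated and positions taken from RefSeq genes of Sscrofa11.1. The genes and lists, and the rule for the genes named, were chosen with earlier results of these data known: all listed genes, of each related list the 2 with the smallest FE p and the 1 with the largest litter F, and 5 most alike genes by r.

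Models were fitted with limma 3.58.1 in R 4.3.3 with sow as a fixed factor. As in the study's methods, probesets with a mean under the 5% quantile (1.62), and for FE and interaction those whose SD exceeded the 95% quantile in each group, were removed, leaving 23837 and 23140. Sex was tested with FE and sow, and litter by a moderated F with FE and sex. Tests were two-sided with Benjamini-Hochberg adjustment over all probesets and a threshold of 0.05. Correlations used 100000 permutations, and list scores are means of gene values less their mean over pigs. The slaughter batch of the study's model was not used here, since the labels do not give it. Pigs are separate animals, and their number limits precision. The fits were tested on simulated data. The alternatives left out pigs, litters and filters, and changed normalisation, weights, covariates and probesets. Figures were drawn with matplotlib 3.10.9.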

Additional observations from a re-analysis of the deposited data

Results flagged for a closer look

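Within the litters of 4 pigs and the groups of 10, a pig standing far from the others was looked for in 49 groups of values, and 3 were found; chance gives about 1 in 20 groups. CHGA in the litter of sow 1410 was lowest in the low FE female, at 6.63, next to 6.74 in the nearest littermate. CHGA in the litter of sow 1417 was highest in the high FE male, at 7.03, next to 6.89 in the nearest littermate. CCK in the litter of sow 1411 was lowest in the low FE male, at 1.08, next to 3.12 in the nearest littermate, and this was the lowest CCK value of all pigs.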

How the results depend on the processing

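No enteroendocrine gene was called for FE, sex or their interaction under 13, 10 and 10 alternatives that kept all pigs, nor without any of the 20 pigs or 5 litters. For litter, 1 gene, GCG, was called with probesets under the median mean removed and with array weights, and 0 to 1 with a pig or litter left out, the 1 being without the high FE female of sow 1410. The probesets called for litter over the array, 30 as reported, numbered 3 to 124 under other settings and 7 to 72 with a pig or litter left out. Of the pairs that co-vary, 0 were called on values centred on the sow and 0 on residuals from sow and pig number. With the mean of all probesets of a gene 2 were called, CHGB with SST being added, and 0 to 3 with a pig or litter left out: 0 without the litter of sow 1406, 2 without that of sow 1417 and 3 without the high FE male of sow 1417. Chosen after seeing the data, the dimmer CHGA probeset gave 0 and the dimmer CHGB probeset 2 called pairs.

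Signs turned for small differences that were not called. The NTS difference by sex was 0.051 with array weights, against -0.0060 as reported. NEUROD1 differed by 0.035 for FE and 0.013 for sex with the mean of its probesets, and by 0.084 and 0.066 with its dimmer probeset, which was chosen after seeing the data. With a pig or litter left out, the FE difference ranged from -0.090 to 0.071 for NEUROD1, from -0.0045 to 0.081 for CHGA and from -0.033 to 0.20 for GCG, and the sex difference from -0.18 to 0.058 for NEUROD1, from -0.089 to 0.12 for NTS and from -0.035 to 0.14 for SST. The causes were not tested. CCK, NTS and NEUROD1 lie near the dim end of the array, where differences can be compressed, though the SD of CCK was larger than that of 97.4% of probesets. With 10 pigs per group, 95% intervals were such as -0.01 to 0.51 for SST. The labels carry no replicate numbers, and pigs were paired by sow and sex instead; with these pairs as a block in the FE test no call changed (SST 0.25, adjusted p = 0.969).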
